A study of Mus musculus with 22 samples.

Results

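In all, 10 genes of glucose uptake, glycolysis and its control were read from the joined raw count tables by their symbols, out of 24405 gene rows used. They are Hif1a, Slc2a1, Hk2, Hk3, Pfkfb3, Pfkp, Pgk1, Ldha, Eno1 and Pdk1. The RNA, selected for poly(A) tails, was from the right lung (caudal lobes) of mice of the strain C57BL/6. The allergen was ovalbumin (OVA), and the airborne particulate matter (PM) was collected at a goat farm. The groups were OVA sensitisation with 3 µg PM (5 libraries), OVA sensitisation with no PM (6 libraries), saline with 3 µg PM (5 libraries) and saline with no PM (6 libraries). The arms are called OVA lungs and saline lungs here, since the labels give saline as the sensitisation while the protocol may mean mice that were sensitised and then challenged with saline. The design text calls the mice old and wild type without giving an age. It gives 5 samples per group, while both groups without PM held 6 libraries. Nothing in the labels says that the libraries of a group came from separate animals, so p-values measure the spread between these libraries, which may be technical.

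Glucose enters a cell through transporters of the Slc2a family, and hexokinases trap it by phosphorylation. Phosphofructokinase then commits it to glycolysis, later enzymes draw ATP and pyruvate from it, and lactate dehydrogenase turns pyruvate into lactate. When oxygen is short, and in activated immune cells, the transcription factor subunit HIF-1α, encoded by Hif1a, is known to raise many of these genes. Pyruvate dehydrogenase kinases inhibit the enzyme complex that turns pyruvate into acetyl-CoA inside the mitochondrion. Activated macrophages, T cells and other dividing cells are known for high glycolysis, while resting lung tissue holds many cell types with different isozymes.

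Hif1a, Hk2, Hk3 and Pgk1 were higher in OVA lungs than in saline lungs without PM, and their promoters are shown here because these are the members called in that comparison and HIF-1 is known to bind promoters of glycolytic genes. Each run is the RefSeq window from GRCm38.p6, 250 bases before to 50 after an annotated start, written 5′ to 3′ on the gene's strand. Capitals mark ACGTG or GCGTG or their reverse complements CACGT and CACGC, the core letters of the HIF binding element, where ACGTG read on both strands gives CACGTG.
Hif1a chr12:73907617-73907916 (plus strand): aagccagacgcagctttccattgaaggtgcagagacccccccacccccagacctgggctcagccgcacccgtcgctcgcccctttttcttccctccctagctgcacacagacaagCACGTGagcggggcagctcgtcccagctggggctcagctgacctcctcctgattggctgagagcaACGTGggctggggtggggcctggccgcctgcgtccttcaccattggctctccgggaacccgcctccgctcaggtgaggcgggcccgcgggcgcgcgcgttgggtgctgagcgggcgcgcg
Hk2 chr6:82774405-82774704 (minus strand): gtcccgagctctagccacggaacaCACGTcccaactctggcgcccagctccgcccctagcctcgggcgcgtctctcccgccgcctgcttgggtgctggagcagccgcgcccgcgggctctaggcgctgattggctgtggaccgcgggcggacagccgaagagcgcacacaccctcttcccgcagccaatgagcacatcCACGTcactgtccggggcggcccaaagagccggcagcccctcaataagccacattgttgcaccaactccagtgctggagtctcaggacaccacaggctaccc
Hk3 chr13:55021336-55021635 (minus strand): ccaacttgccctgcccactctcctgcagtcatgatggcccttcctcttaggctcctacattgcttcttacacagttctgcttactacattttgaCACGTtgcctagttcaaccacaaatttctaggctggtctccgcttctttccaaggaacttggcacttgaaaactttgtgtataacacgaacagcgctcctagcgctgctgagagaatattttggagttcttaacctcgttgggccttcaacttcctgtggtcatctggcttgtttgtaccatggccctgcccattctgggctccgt
Pgk1 chrX:106186850-106187149 (plus strand): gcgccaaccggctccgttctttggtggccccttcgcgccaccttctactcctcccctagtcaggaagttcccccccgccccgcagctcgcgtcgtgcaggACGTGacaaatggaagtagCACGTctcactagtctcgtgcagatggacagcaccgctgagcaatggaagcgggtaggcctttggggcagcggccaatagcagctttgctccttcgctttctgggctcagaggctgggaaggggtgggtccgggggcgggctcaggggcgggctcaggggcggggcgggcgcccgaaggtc
These letters occurred 3 times in the Hif1a window, with starts at -135, -134 and -70 from the annotated start, of which the first pair is a single palindrome read on both strands. They occurred 2 times in the Hk2 window, at -226 and -52, and 2 times in the Pgk1 window, at -150 and -131. Hk3 had 1 match, at -156, in a window with a GC content of 49.0%, against 66.7% to 69.3% in the windows of the other 3 genes. Over all 10 genes, 14 of 15 windows held either motif, and each gene had it in at least 1 window. The Eno1 windows at 150236947 to 150237246 and 150236974 to 150237273 overlap and hold the same matches, so the 15 windows are not all separate promoters. Among 32851 windows of all genes the share with either motif was 43.8%, and it was 69.2% among the 9690 windows of at least 60% GC. ACGTG alone was in 19.6% and GCGTG alone in 32.4% of all windows. A match is a description of letters, not a binding site.

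Library totals ran from 0.302 to 28.0 M counts (M for mega) with a median of 12.5 M. Group medians were 10.3 M in OVA lungs with PM, 13.7 M in OVA lungs without PM, 10.3 M in saline lungs with PM and 14.5 M in saline lungs without PM. The 3 libraries under 2 M counts were replicates 4 (0.302 M) and 5 (1.13 M) of OVA lungs with PM and replicate 4 (1.84 M) of OVA lungs without PM, and results for the 10 genes and their isozyme ratios that change with them are given with and without them. Names of the libraries with PM belong to another number series than those without, so any difference in preparation or run cannot be told apart from PM. Defining markers of alveolar type 2 cells, alveolar type 1 cells and endothelium were detected in each group, as lung should have. Bulk RNA cannot tell fewer cells of a type from less RNA per cell.

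Each level is in CPM, with all 22 libraries brought to 1 scale by TMM. Of the 10 genes, 9 were detected well enough to be tested in every comparison, and Eno1 was not. Per kilobase of the longest protein-coding transcript, the order of median levels over all libraries was Ldha (222 CPM per kb), Pgk1 (26.3), Pfkp (18.9), Hif1a (16.6), Pfkfb3 (12.1), Hk3 (10.5), Slc2a1 (9.08), Pdk1 (6.01) and Hk2 (3.02). Ldha was the only one above the range of all others, since its lowest library (151 CPM per kb) exceeded the highest library of Pgk1 (40.3 CPM per kb). The ranges of the neighbours Pgk1, Pfkp, Hif1a, Pfkfb3 and Hk3 overlapped. Summed over the 9 detected genes, the level was 912 ± 95.6 CPM in OVA lungs with PM (SD, n = 5), 836 ± 87.3 CPM in OVA lungs without PM (SD, n = 6), 750.4 ± 36.4 CPM in saline lungs with PM (SD, n = 5) and 681 ± 46.3 CPM in saline lungs without PM (SD, n = 6). Ldha, at 500.1, 399, 395 and 334 CPM on average in the same groups, was the largest part of each sum.

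Without PM, Hif1a, Hk2, Hk3 and Pgk1 were higher in OVA lungs than in saline lungs, and 0 of the 9 tested genes were lower. The threshold was an adjusted p of 0.05 in edgeR's quasi-likelihood test, adjusted over all genes. Of all 14632 genes tested, 14.4% were called higher and 23.6% in either direction. The median log2 fold change was 0.27 over the 9 genes and -0.02 over all genes. With PM in both arms, Hk2, Hk3, Pgk1 and Ldha were higher in OVA lungs, against 13.2% of 14250 genes called higher and 22.8% called either way, and the medians were 0.27 and -0.01. For PM against no PM, Pgk1 was the 1 gene called in saline lungs, where it was higher (5.47% of 14496 genes were called higher and 12.8% either way), and 0 of 9 were called in OVA lungs (9.14% of 14657 genes either way). Scaling by library totals in place of TMM changed the split of calls over all genes for PM in OVA lungs to 184 higher and 1870 lower, from 332 higher and 1007 lower, and for OVA against saline with PM to 1509 higher and 1922 lower, from 1880 higher and 1364 lower. In OVA lungs 2 of the 9 had an unadjusted p under 0.05, against 28.3% of all genes, and DESeq2 called 1. Without the libraries under 2 M counts, 3472 of 14903 genes were called there, 1 member (Pgk1) among them, and leaving out 1 library gave 0 to 3396 calls over all genes. A difference in the PM effect between the arms passed edgeR's interaction test for 0 of the 9, a test that called 0.0937% of 14942 genes; 0 of the 9 had an unadjusted p under 0.05 and DESeq2 called 0.

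**Figure D1:**
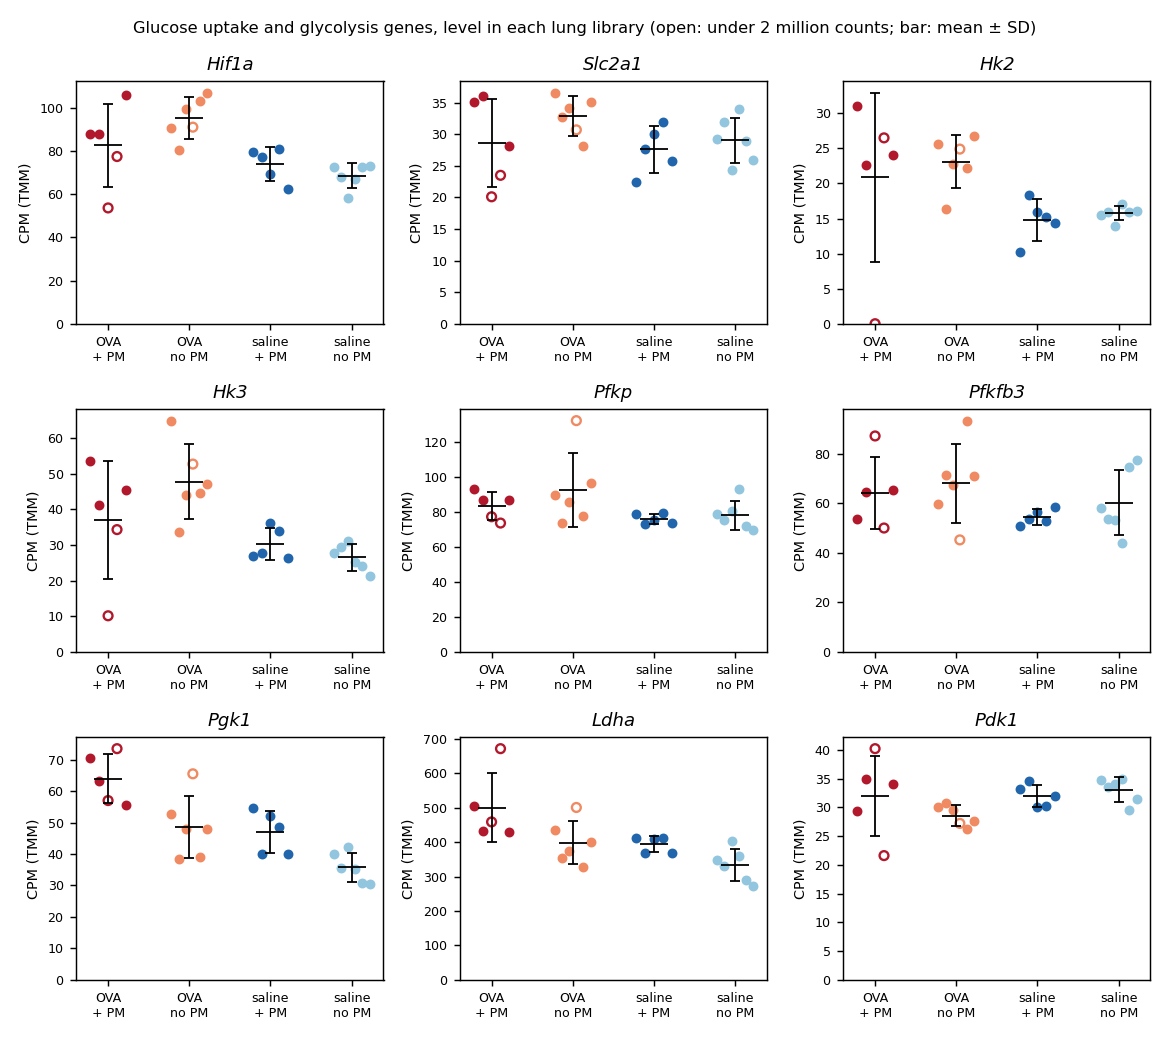
Level of each of the 9 detected genes in each library, as CPM on a linear axis from 0, in OVA lungs with PM, OVA lungs without PM, saline lungs with PM and saline lungs without PM; bars are mean ± SD and open circles are the 3 libraries under 2 M counts. Hif1a and Hk3 in OVA lungs without PM lie above saline lungs without PM in every library, and Pgk1 and Ldha in OVA lungs with PM lie above saline lungs with PM in every library.

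**Figure D2:**
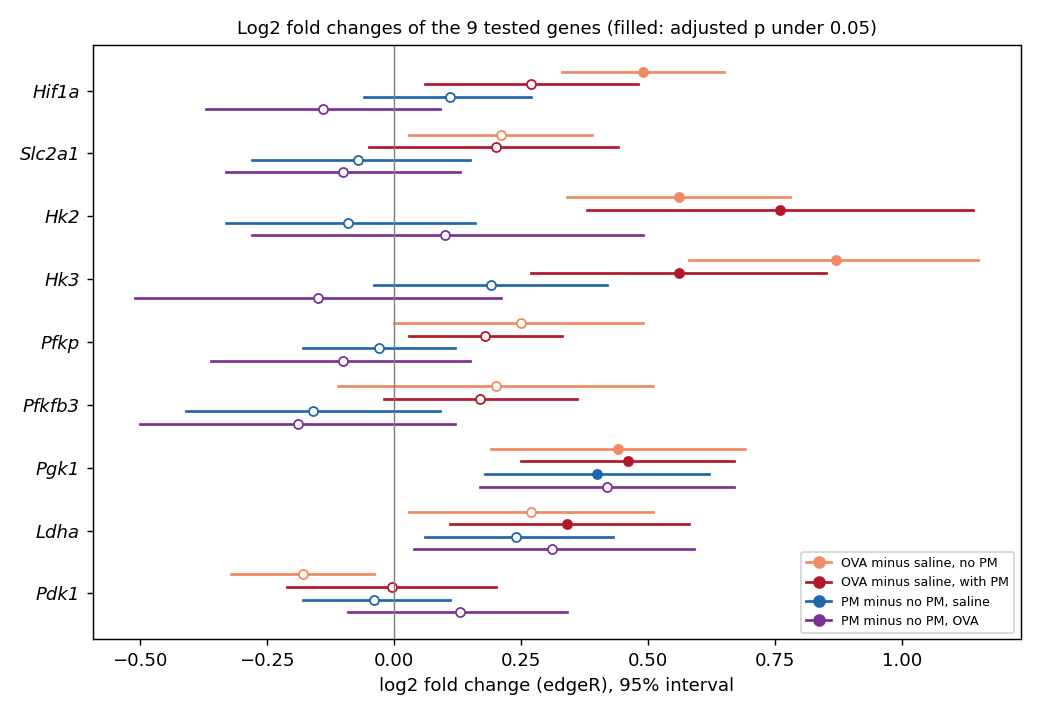
Log2 fold change of each tested gene, with its 95% interval, in 4 comparisons; filled points have an adjusted p under 0.05. The Pgk1 estimates lie between 0.40 and 0.46 in all 4 comparisons, while those of Hk2 and Hk3 lie from 0.56 to 0.87 for OVA against saline and from -0.15 to 0.19 for PM against no PM.

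Hif1a (chromosome 12, 73901375 to 73947530, plus strand, GRCm38) encodes HIF-1α, the oxygen-labile subunit of the hypoxia-inducible factor. It measured 87.9, 88.0, 53.6, 77.4 and 106 CPM in OVA lungs with PM and 79.5, 77.1, 69.2, 80.8 and 62.4 CPM in saline lungs with PM. In OVA lungs without PM it ran from 80.6 to 107 CPM with a median of 95.1, and in saline lungs without PM from 58.4 to 73.1 CPM with a median of 70.2. Without PM the lowest OVA library was thus above the highest saline library, and the lowest value of all was the shallowest library. Its log2 fold change for OVA against saline was 0.49 ± 0.08 without PM (SE, adjusted p = 0.000519) and 0.27 ± 0.11 with PM (adjusted p = 0.0791). Without the libraries under 2 M counts, the value with PM was 0.34 and passed (adjusted p = 0.0178), and the groups no longer overlapped. Leaving out the shallowest library alone gave 0.31 (adjusted p = 0.0328). PM against no PM gave -0.14 ± 0.12 in OVA lungs and 0.11 ± 0.09 in saline lungs, neither past the threshold (adjusted p = 0.470 and 0.421), and the difference between the arms was -0.22 with a 95% interval of -0.51 to 0.07.

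Slc2a1 (chromosome 4, 119108711 to 119137983, plus strand) encodes GLUT1, the basal glucose transporter of most cells. It measured 35.1, 36.1, 20.1, 23.5 and 28.2 CPM in OVA lungs with PM and 22.5, 27.7, 30.0, 32.0 and 25.8 CPM in saline lungs with PM. Without PM it ran from 28.1 to 36.6 CPM (median 33.5) in OVA lungs and from 24.4 to 34.0 CPM (median 29.1) in saline lungs. All 4 groups overlapped, and the low pair in OVA lungs with PM were the shallow libraries. The log2 fold change for OVA against saline was 0.21 (95% interval 0.03 to 0.39, adjusted p = 0.111) without PM and 0.20 (-0.05 to 0.44, adjusted p = 0.298) with PM. A rise of more than 0.44 lay outside both intervals.

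Within the transporter family, other members did rise. Slc2a3 (GLUT3), a high-affinity transporter of neurons and leukocytes, had a log2 fold change for OVA against saline of 0.93 ± 0.18 without PM (adjusted p = 0.00203) and 0.81 ± 0.13 with PM (adjusted p = 0.000171). Slc2a6 (GLUT6), described in macrophages, had 1.40 ± 0.19 (adjusted p = 0.000123) and 1.06 ± 0.17 (adjusted p = 0.000222). These were the only 2 of 7 tested transporters other than Slc2a1 that passed in either comparison, and 0 were lower; the medians of the 7 were -0.04 and -0.03. As a ratio within each library, which no scaling can move, log2 Slc2a1 to Slc2a3 was 0.64 ± 0.36 in OVA lungs without PM and 1.36 ± 0.41 in saline lungs without PM (SD, n = 6 each). The difference of -0.72 had p = 0.00866 by a two-sided exact permutation test and an adjusted p of 0.0433 over 20 ratio tests. That call was lost in 10 of 12 repeats that left out 1 library each (-0.85 to -0.56) and without the libraries under 2 M counts (-0.63, exact permutation adjusted p = 0.102). Fewer libraries also raise the smallest p this test can give. With PM the ratio was 0.46 ± 0.37 in OVA lungs and 1.08 ± 0.32 in saline lungs (SD, n = 5 each), and the difference of -0.62 did not pass (exact permutation p = 0.0317, adjusted p = 0.0989).

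Hk2 (chromosome 6, 82725025 to 82774454, minus strand) encodes hexokinase 2, the inducible isozyme bound to mitochondria. It measured 31.1, 22.6, 0, 26.5 and 24.1 CPM in OVA lungs with PM and 10.2, 18.4, 16.0, 15.2 and 14.3 CPM in saline lungs with PM. The 0 was the shallowest library, where 3 counts would be 10.1 CPM, so a level below that cannot be told from none there. In OVA lungs without PM Hk2 ran from 16.3 to 26.8 CPM with a median of 23.9, and in saline lungs without PM from 13.9 to 17.0 CPM with a median of 16.0. Apart from that 0, each OVA library with PM lay above each saline library with PM, and without PM 1 OVA library (16.3 CPM) lay within the saline range. The log2 fold change for OVA against saline was 0.56 ± 0.11 without PM (adjusted p = 0.00219) and 0.76 ± 0.20 with PM (adjusted p = 0.00879). Without the libraries under 2 M counts the value with PM was 0.81 (adjusted p = 0.00186), while leaving out replicate 1 of OVA lungs with PM, the highest library, gave 0.61 and lost the call (adjusted p = 0.0583). For PM against no PM Hk2 had 0.10 ± 0.20 in OVA lungs and -0.09 ± 0.13 in saline lungs (adjusted p = 0.778 and 0.673).

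Hk3 (chromosome 13, 55005985 to 55021385, minus strand) encodes hexokinase 3, an isozyme known chiefly from myeloid cells. It measured 53.6, 41.2, 10.1, 34.3 and 45.5 CPM in OVA lungs with PM and 27.0, 27.7, 36.2, 33.8 and 26.2 CPM in saline lungs with PM. In OVA lungs without PM it ran from 33.6 to 64.9 CPM with a median of 45.7, and in saline lungs without PM from 21.2 to 31.2 CPM with a median of 26.4. Without PM the groups did not overlap; with PM they did, through the shallow libraries. Hk3 had the largest log2 fold change of the 9 genes for OVA against saline without PM, 0.87 ± 0.14 (adjusted p = 0.000572), and 0.56 ± 0.15 with PM (adjusted p = 0.0105). The value with PM was 0.65 without the libraries under 2 M counts (adjusted p = 0.00111) and 0.42, no longer called, without replicate 1 of OVA lungs with PM (adjusted p = 0.0780). PM gave -0.15 ± 0.18 in OVA lungs and 0.19 ± 0.12 in saline lungs (adjusted p = 0.636 and 0.277).

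Hk1, the hexokinase of most tissues, averaged 49.1 ± 9.80 CPM in OVA lungs with PM (SD, n = 5), 76.3 ± 13.7 CPM in OVA lungs without PM (SD, n = 6), 49.8 ± 3.45 CPM in saline lungs with PM (SD, n = 5) and 69.9 ± 14.0 CPM in saline lungs without PM (SD, n = 6). It fell with PM by 0.61 ± 0.13 on the log2 scale in OVA lungs (SE, adjusted p = 0.0184) and by 0.50 ± 0.12 in saline lungs (adjusted p = 0.0240). OVA against saline did not pass either without PM (0.15, adjusted p = 0.476) or with PM (0.05, adjusted p = 0.944). A correction for length and GC content of transcripts cut the fall in OVA lungs to -0.28 and ended the call (adjusted p = 0.109), which was also lost in 2 of 11 fits that left out 1 library each. The call in saline lungs was lost in 6 of 11 such fits (log2 fold changes -0.56 to -0.43). The log2 ratio of Hk3 to Hk1 was -0.73 ± 0.22 in saline lungs with PM (SD, n = 5) and -1.39 ± 0.45 in saline lungs without PM (SD, n = 6), a difference of 0.66 (exact permutation p = 0.00866, adjusted p = 0.0433), which lost its call in 9 of 11 repeats that left out 1 library each (0.53 to 0.76). Leaving out a library also raises the smallest p this test can give. For OVA against saline without PM the ratio differed by 0.71 (exact permutation p = 0.0173, adjusted p = 0.0693). Hk2 to Hk1 passed in none of the 4 comparisons, with differences of 0.02 to 0.41 and exact permutation p adjusted to 0.179 or more. The lowest 2 of these include the library with 0 Hk2 counts: without the libraries under 2 M counts the difference in Hk2 to Hk1 was 0.75 for OVA against saline with PM and 0.83 for PM in OVA lungs, against 0.07 and 0.02 with them. Hk3 to Hk1 was likewise 0.57 and 0.65 without them and 0.18 and 0.13 with them, and these 4 values without them had adjusted exact permutation p from 0.102 to 0.13.

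Pfkp (chromosome 13, 6579768 to 6648777, minus strand) encodes the platelet-type subunit of phosphofructokinase. It measured 92.9, 86.7, 77.1, 73.5 and 86.6 CPM in OVA lungs with PM and 78.5, 73.0, 75.4, 79.0 and 73.5 CPM in saline lungs with PM. Without PM it ran from 73.3 to 132 CPM (median 87.6) in OVA lungs and from 69.5 to 92.8 CPM (median 76.8) in saline lungs, and the 132 CPM was a shallow library. The groups overlapped in every comparison over all libraries. The log2 fold change for OVA against saline was 0.25 ± 0.13 without PM (adjusted p = 0.180) and 0.18 ± 0.08 with PM (adjusted p = 0.0991). With PM and without the libraries under 2 M counts it was 0.23 and passed (adjusted p = 0.0259), and the groups no longer overlapped; without replicate 5 of OVA lungs with PM alone it was 0.21 (adjusted p = 0.0393). Exons of Pitrm1 overlap those of Pfkp by 748 bases on the opposite strand, and whether the counting used strand is not given in the sources used here. Pitrm1 averaged 49.6 ± 5.45 CPM in OVA lungs with PM, 49.6 ± 2.45 CPM in OVA lungs without PM, 48.6 ± 1.58 CPM in saline lungs with PM and 48.5 ± 3.75 CPM in saline lungs without PM (SD, n = 5, 6, 5 and 6).

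Pfkfb3 (chromosome 2, 11471433 to 11554077, minus strand) encodes the inducible enzyme that makes fructose 2,6-bisphosphate, an activator of phosphofructokinase. It measured 53.8, 64.4, 87.2, 50.0 and 65.3 CPM in OVA lungs with PM and 50.7, 53.8, 56.4, 52.9 and 58.5 CPM in saline lungs with PM. Without PM it ran from 45.2 to 93.4 CPM (median 69.2) in OVA lungs and from 44.1 to 77.4 CPM (median 55.8) in saline lungs. The groups overlapped throughout. Its log2 fold change for OVA against saline was 0.20 without PM (95% interval -0.11 to 0.51, adjusted p = 0.397) and 0.17 with PM (-0.02 to 0.36, adjusted p = 0.238). Its family member Pfkfb2 did pass, with 0.52 ± 0.12 without PM (adjusted p = 0.00465) and 0.47 ± 0.11 with PM (adjusted p = 0.00357).

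Pgk1 (chromosome X, 106187100 to 106203699, plus strand) encodes phosphoglycerate kinase, the enzyme of the first ATP-yielding step. It measured 70.5, 63.3, 57.0, 73.5 and 55.7 CPM in OVA lungs with PM and 54.6, 40.1, 52.0, 48.7 and 40.0 CPM in saline lungs with PM. In OVA lungs without PM it ran from 38.4 to 65.5 CPM with a median of 47.9, and in saline lungs without PM from 30.5 to 42.1 CPM with a median of 35.4. The group means of 64.0, 48.6, 47.1 and 35.8 CPM, in that order of OVA with PM, OVA without PM, saline with PM and saline without PM, put OVA with PM on top and saline without PM at the bottom. OVA lungs without PM and saline lungs with PM, the middle pair, were not compared with each other.

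Pgk1 was higher in OVA than in saline lungs by 0.44 ± 0.13 without PM (adjusted p = 0.0227) and by 0.46 ± 0.11 with PM (adjusted p = 0.00511), where the groups did not overlap. The call without PM was lost without replicate 1 of OVA lungs without PM (0.40, adjusted p = 0.0549). With PM it rose in saline lungs by 0.40 ± 0.11 (adjusted p = 0.0358), and the value in OVA lungs was 0.42 ± 0.13 (adjusted p = 0.0510). The saline call was lost without any 1 of 6 libraries, namely saline without PM replicates 2, 5 and 6 and saline with PM replicates 1, 3 and 5, with log2 fold changes of 0.34 to 0.45 over all 11 such fits. A correction for length and GC content of transcripts brought it to 0.26 (adjusted p = 0.0734). The OVA value passed without the libraries under 2 M counts (0.47, adjusted p = 0.0151), without replicate 4 of OVA lungs without PM alone (0.49, adjusted p = 0.00577) and by DESeq2 (0.43, adjusted p = 0.0347). In the authors' deposited table it is listed at 0.38 with an adjusted p of 0.0339. The difference between the arms in the PM effect was 0.04, with a 95% interval of -0.31 to 0.39. Of the 75-base stretches of the Pgk1 transcript, 67.4% also occur in Pgk1-rs7, a related sequence elsewhere in the genome. Pgk1-rs7 has no row of its own among the gene rows used here. How reads that match both copies were treated could move the counts of Pgk1.

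Ldha (chromosome 7, 46841475 to 46855627, plus strand) encodes the A subunit of lactate dehydrogenase, which favours lactate formation. It measured 505, 433, 459, 672 and 431 CPM in OVA lungs with PM and 413, 368, 410.0, 412 and 369.7 CPM in saline lungs with PM. In OVA lungs without PM it ran from 328 to 501 CPM with a median of 388, and in saline lungs without PM from 274 to 404 CPM with a median of 338. With PM each OVA library lay above each saline library, and the highest value, 672 CPM, came from a shallow library. The log2 fold change for OVA against saline was 0.34 ± 0.12 with PM (adjusted p = 0.0445) and 0.27 ± 0.12 without PM (adjusted p = 0.127). The call with PM was lost in 7 of the 10 fits that left out 1 library, all but those without OVA with PM replicates 2, 4 and 6, with values of 0.21 to 0.40. Without the libraries under 2 M counts it was 0.21 (adjusted p = 0.0807), with scaling by library totals 0.26 (adjusted p = 0.0864), and with all 4 groups in one fit 0.34 (adjusted p = 0.0728). PM gave 0.31 ± 0.14 in OVA lungs (adjusted p = 0.157) and 0.24 ± 0.10 in saline lungs (adjusted p = 0.0989). The first passed without replicate 4 of OVA lungs without PM (0.38, adjusted p = 0.0474) and the second without replicate 3 of saline lungs without PM (0.31, adjusted p = 0.0197).

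Ldha was also set against Ldhb, the B subunit, which favours the return of lactate to pyruvate. The log2 ratio of Ldha to Ldhb was 1.36 ± 0.29 in OVA lungs without PM and 0.66 ± 0.12 in saline lungs without PM (SD, n = 6 each), with no overlap. The difference of 0.70 had an exact permutation p of 0.00216, the smallest this design can give, and an adjusted p of 0.0433. With PM the ratio was 1.25 ± 0.21 in OVA lungs and 0.82 ± 0.17 in saline lungs (SD, n = 5 each), again with no overlap. That difference of 0.43 had an exact permutation p of 0.00794, also the smallest possible, and an adjusted p of 0.0433. Leaving out 1 library ended the call in 9 of 12 repeats without PM (0.64 to 0.80) and in 10 of 10 with PM (0.34 to 0.47). Fewer libraries raise the smallest p this test can give, which leaves little room to pass after adjustment. The lost calls with PM therefore cannot tell whether the difference rests on 1 library. Without the libraries under 2 M counts neither passed, at 0.64 and 0.32 (exact permutation adjusted p = 0.0866 and 0.102). Ldhb itself measured 156 ± 27.6 CPM in OVA lungs without PM and 213 ± 45.8 CPM in saline lungs without PM (SD, n = 6 each; log2 fold change -0.43, adjusted p = 0.0535). PM did not pass for this ratio, with -0.11 in OVA lungs and 0.16 in saline lungs (exact permutation adjusted p = 0.670 and 0.220).

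**Figure D3:**
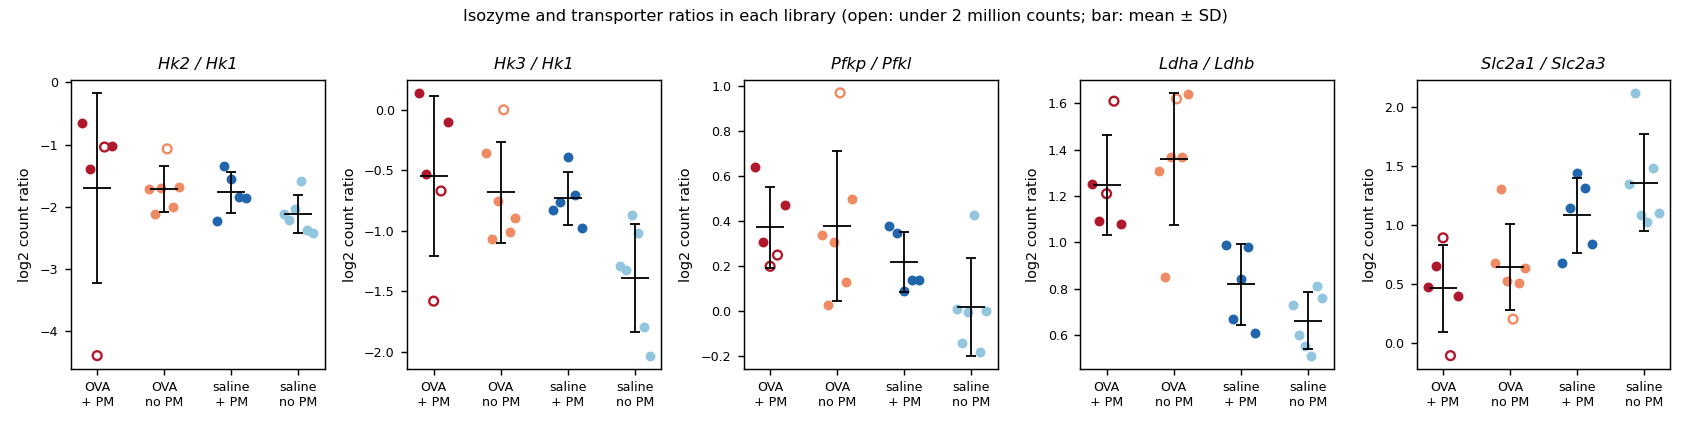
Log2 ratio of the counts of 2 related genes in each library, for 5 pairs in 4 groups; bars are mean ± SD, open circles are libraries under 2 M counts, and the vertical axes do not start at 0. Ldha to Ldhb is 1.25 and 1.36 on average in OVA lungs with and without PM, above 0.82 and 0.66 in saline lungs with and without PM; the low Hk2 to Hk1 point is the library with 0 Hk2 counts.

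Eno1 (chromosome 4, 150236721 to 150248879, plus strand) encodes enolase 1, an abundant glycolytic enzyme in most tissues. In these tables it had 1, 1, 1 and 1 counts in OVA lungs with PM, OVA lungs without PM, saline lungs with PM and saline lungs without PM, each in a single library, so it was never tested. The row of Eno1b, a retrogene copy of Eno1, was detected instead, at 17.0 ± 5.93 CPM in OVA lungs with PM, 13.6 ± 2.67 CPM in OVA lungs without PM, 11.3 ± 2.64 CPM in saline lungs with PM and 9.49 ± 1.63 CPM in saline lungs without PM (SD, n = 5, 6, 5 and 6). Of the 75-base stretches of the Eno1 transcript, 64.2% also occur in Eno1b and 65.4% in some other gene. The Eno1 row therefore cannot be read as the level of enolase 1 RNA. The Eno1b row was higher in OVA than in saline lungs without PM by 0.50 ± 0.14 (adjusted p = 0.0216), a call lost without replicate 1 of OVA lungs without PM (0.44, adjusted p = 0.0594), and had 0.44 ± 0.18 with PM (adjusted p = 0.0974). Eno2, the enolase of neurons and neuroendocrine cells, had 0.54 ± 0.16 without PM (adjusted p = 0.0259, lost in 4 of 12 fits that left out 1 library) and 0.72 ± 0.18 with PM (adjusted p = 0.00694).

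Pdk1 (chromosome 2, 71873224 to 71903858, plus strand) encodes a pyruvate dehydrogenase kinase, which inhibits the step from pyruvate to acetyl-CoA. It measured 29.3, 34.9, 40.2, 21.6 and 34.0 CPM in OVA lungs with PM and 33.1, 34.6, 30.0, 30.2 and 32.0 CPM in saline lungs with PM. Without PM it ran from 26.2 to 30.8 CPM (median 28.6) in OVA lungs and from 29.5 to 35.0 CPM (median 33.8) in saline lungs. It was the 1 gene of the 9 whose estimate was negative for OVA against saline in both comparisons, at -0.18 without PM (95% interval -0.32 to -0.04, adjusted p = 0.0879) and -0.004 with PM (-0.21 to 0.20, adjusted p = 0.989); the second was 0.03 without the libraries under 2 M counts. Neither passed the threshold. Of its relatives, Pdk4, known for its rise in fasting, fell in OVA lungs without PM by 0.88 ± 0.28 (adjusted p = 0.0375, lost in 5 of 12 fits that left out 1 library). Pdk2 fell with PM by 0.45 ± 0.13 in OVA lungs (adjusted p = 0.0410) and by 0.56 ± 0.14 in saline lungs (adjusted p = 0.0245), calls lost in 10 of 11 and 6 of 11 such fits, and in OVA lungs with the correction for length and GC content (-0.31, adjusted p = 0.120).

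Beyond the 10 genes, the rest of the pathway was read from lists set by function, which were chosen with earlier results of these data known. For the counts that follow, 14.4% of all tested genes were higher and 9.27% lower in OVA than in saline lungs without PM, and 13.2% higher and 9.57% lower with PM. Of 15 tested glycolytic enzymes outside the 10, 3 were higher and 0 lower in OVA than in saline lungs without PM, with a median log2 fold change of 0.07, and 2 were higher and 1 lower with PM, with a median of 0.13. Pklr, the liver and red cell pyruvate kinase, had 0.96 ± 0.23 without PM (adjusted p = 0.00792). Its level was low, at 1.74 CPM on average in OVA lungs and 0.881 CPM in saline lungs without PM. With PM saline lungs had the higher average, at 2.04 CPM against 1.34 CPM in OVA lungs. Pgam1, a phosphoglycerate mutase, had 0.32 ± 0.09 (adjusted p = 0.0222, lost in 3 of 12 fits that left out 1 library). Gpi1, glucose-6-phosphate isomerase, had 0.42 ± 0.11 with PM (adjusted p = 0.0120), and Pgam2, the muscle mutase, fell there by 0.88 ± 0.29 (adjusted p = 0.0389, lost in 5 of 10 such fits). Pgam2 averaged only 0.772 CPM in OVA lungs with PM and 2.17 CPM in saline lungs with PM. In that comparison 4 of 7 tested heart muscle markers were lower too, with a median of -0.92, and their part in it was not tested. The abundant enzymes Gapdh, Pkm and Aldoa did not pass, with 0.29, 0.11 and -0.01 without PM (adjusted p = 0.250, 0.433 and 0.960).

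Another list held 8 tested genes other than Pfkfb3, some of fructose 2,6-bisphosphate control and some of enzymes that run against glycolysis. Of these, 3 were higher (Pfkfb2, Fbp1 and Pck2) and 1 lower (Fbp2) without PM, and 4 higher (the same genes and Pfkfb4) and 1 lower (Fbp2) with PM, while Tigar and G6pc3, which oppose glycolysis, passed in neither. Fbp1, fructose-1,6-bisphosphatase, averaged 44.3 ± 37.4 CPM in OVA lungs with PM and 5.37 ± 0.774 CPM in saline lungs with PM (SD, n = 5 each), a log2 fold change of 3.07 ± 0.42 (adjusted p = 5.69e-05), and 2.94 without the libraries under 2 M counts (adjusted p = 0.000184). Without PM the value of Fbp1 was 1.34 ± 0.46 (adjusted p = 0.0483), lost in 9 of 12 fits that left out 1 library. With PM it varied widely between OVA libraries, from 10.1 to 86.2 CPM. Pck2, mitochondrial phosphoenolpyruvate carboxykinase, had 0.43 ± 0.07 without PM (adjusted p = 0.000595) and 0.49 ± 0.12 with PM (adjusted p = 0.00722). Pcx, pyruvate carboxylase, from the list on the fate of pyruvate, had 0.57 ± 0.10 (adjusted p = 0.000923) and 0.43 ± 0.12 (adjusted p = 0.0174). The muscle isozyme Fbp2 fell by 0.48 ± 0.15 without PM (adjusted p = 0.0312, lost in 4 of 12 fits that left out 1 library) and by 0.33 ± 0.10 with PM (adjusted p = 0.0241, but 0.144 with all 4 groups in one fit). In the pentose phosphate pathway 0 of 8 passed without PM, and 3 of 8 were higher with PM, with a median of 0.11 in both. These were Pgls (0.50 ± 0.16), Rpia (0.30 ± 0.10) and Tkt (0.32 ± 0.10), with adjusted p of 0.0320, 0.0328 and 0.0334, and the calls of Pgls, Rpia and Tkt were all lost with library totals (adjusted p = 0.0503, 0.0954 and 0.0841). Slc16a1, a lactate transporter, had 0.31 ± 0.11 with PM (adjusted p = 0.0397, lost in 7 of 10 fits that left out 1 library).

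The genes around Hif1a were mixed. Egln3, a prolyl hydroxylase that marks HIF-1α for decay and is itself a HIF target, had 1.56 ± 0.27 for OVA against saline without PM (adjusted p = 0.000809) and 1.60 ± 0.23 with PM (adjusted p = 6.9e-05). Arnt2, a partner of HIF subunits, had 0.80 ± 0.19 without PM (adjusted p = 0.00780) and 0.97 ± 0.30 with PM (adjusted p = 0.0257, lost in 4 of 10 fits that left out 1 library and by DESeq2, adjusted p = 0.0788). Arnt2 was low, averaging 2.53 CPM in OVA and 1.43 CPM in saline lungs without PM, and 2.57 and 0.970 CPM with PM. In replicates 4 and 5 of OVA lungs with PM, 3 counts are worth 10.1 and 2.94 CPM. Egln1, the main oxygen sensor of the family, fell without PM by 0.26 ± 0.09 (adjusted p = 0.0465, lost in 10 of 12 such fits). Epas1 (HIF-2α), strong in lung endothelium, was lower in OVA than in saline lungs with PM (-0.54 ± 0.13, adjusted p = 0.00773, but 0.0711 with all 4 groups in one fit) and had -0.53 ± 0.21 without PM (adjusted p = 0.0807). Of 16 HIF targets outside glycolysis, 2 were higher and 6 lower without PM, with a median of -0.23, and 2 higher and 5 lower with PM, with a median of -0.15. Bhlhe40, a repressor active in immune cells, had 1.19 ± 0.10 without PM (adjusted p = 3.49e-06) and 0.85 ± 0.11 with PM (adjusted p = 4.37e-05). Adm, the vasodilator adrenomedullin, fell by 0.79 ± 0.14 (adjusted p = 0.00101) and by 1.38 ± 0.18 (adjusted p = 4.28e-05). P4ha2, a collagen prolyl hydroxylase, fell by 0.38 ± 0.09 without PM (adjusted p = 0.00693), and Vegfa, the endothelial growth factor, by 0.70 ± 0.11 with PM (adjusted p = 0.000224). Their averages were lower in OVA lungs in the other comparison too. P4ha2 averaged 34.7 CPM in OVA lungs and 51.5 CPM in saline lungs with PM. Vegfa averaged 600.2 CPM in OVA lungs and 930.1 CPM in saline lungs without PM.

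**Figure D4:**
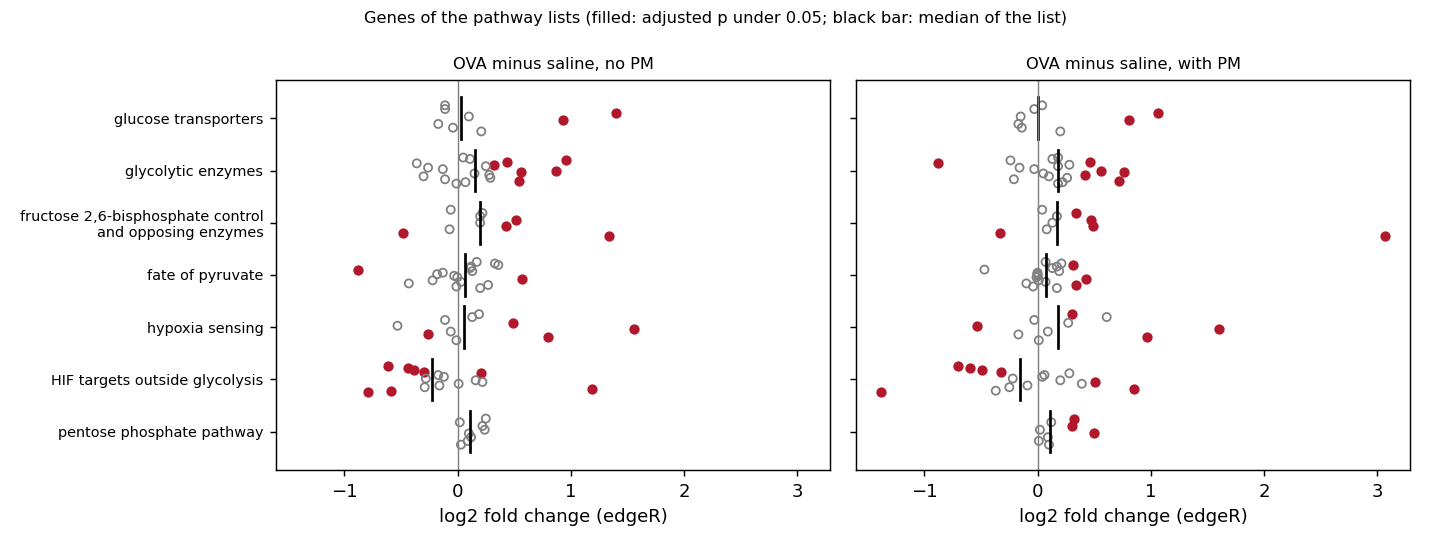
Log2 fold change for OVA against saline of the tested genes in 7 pathway lists, without PM on the left and with PM on the right; filled points have an adjusted p under 0.05 and black bars are list medians, members included. Medians lie between -0.23 and 0.20, lowest for HIF targets outside glycolysis in both panels, and the point at 3.07 is Fbp1.

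For PM against no PM, 5.47% of all genes were higher and 7.37% lower in saline lungs, and 2.27% higher and 6.87% lower in OVA lungs. In saline lungs, glycolytic enzymes outside the 10 had 1 higher (Pklr, 1.15 ± 0.26, adjusted p = 0.0184) and 2 lower of 15, namely Hk1 and the muscle phosphofructokinase Pfkm (-0.36 ± 0.08, adjusted p = 0.0179, and -0.23, no longer called, with the correction for length and GC content). In OVA lungs there were 1 higher (Aldoc, an aldolase of brain, 0.64 ± 0.13, adjusted p = 0.0155) and 2 lower of 15, namely Hk1 and Pgam2 (-1.58 ± 0.39, adjusted p = 0.0257). Slc2a4 (GLUT4), the insulin-regulated transporter of muscle and fat, fell there by 1.25 ± 0.31 (adjusted p = 0.0267). Pgam2 averaged 0.772 CPM in OVA lungs with PM and 3.34 CPM in OVA lungs without PM, and Slc2a4 1.46 and 5.20 CPM. The averages with PM lie below the 10.1 and 2.94 CPM that 3 counts are worth in replicates 4 and 5 of OVA lungs with PM. Leaving out 1 library ended the call of Aldoc in 2, of Pgam2 in 3 and of Slc2a4 in 4 of 11 fits. Also in OVA lungs, Ldhb was higher by 0.40 ± 0.12 (adjusted p = 0.0481, lost in 9 of 11 fits), while Adm fell (adjusted p = 0.0155, lost in 2 of 11 fits, whose log2 fold changes were -1.07 to -0.92) and H6pd, an enzyme of the pentose phosphate pathway in the endoplasmic reticulum, fell by 0.38 ± 0.10 (adjusted p = 0.0346). The correction for length and GC content left H6pd at -0.002 (adjusted p = 0.996). In saline lungs, Slc2a6 was higher by 0.51 ± 0.14 (adjusted p = 0.0336, lost in 7 of 11), Slc16a7, a pyruvate transporter, by 0.42 ± 0.10 (adjusted p = 0.0201, lost in 2 of 11) and Pdk3 by 0.23 ± 0.07 (adjusted p = 0.0488, lost in 9 of 11). Slc2a9, a urate transporter of the family, fell there by 0.37 ± 0.09 (adjusted p = 0.0255, lost in 2 of 11), Epas1 by 0.65 ± 0.16 (adjusted p = 0.0247, lost in 5 of 11) and Egln1 by 0.26 ± 0.08 (adjusted p = 0.0447, lost in 9 of 11). With the correction for length and GC content the saline values were 0.06 for Pdk3, -0.27 for Slc2a9 and -0.04 for Egln1, none of them past the threshold (adjusted p = 0.895, 0.0705 and 0.759). Heart muscle markers moved beside the muscle genes Pgam2 and Slc2a4 in OVA lungs, where 5 of 8 were lower with PM (median log2 fold change -1.53). In saline lungs 1 of 8 was lower with PM (median -1.09). The sum over the 8 ran from 58.8 to 184 CPM in OVA lungs with PM and 44.0 to 477 CPM in OVA lungs without PM. In saline lungs it ran from 119 to 208 CPM with PM and 102 to 534 CPM without PM. The part of heart muscle markers in these results was not tested.

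Markers of several cell types moved with OVA. Of all tested genes, 14.4% were higher and 9.27% lower in OVA than in saline lungs without PM, and 13.2% higher and 9.57% lower with PM. In OVA against saline lungs without PM, 8 of 12 markers of monocytes and interstitial macrophages, which like other myeloid cells are known to express Hk3, were higher and 0 lower, as were 8 of 8 proliferation genes, 5 of 5 B cell markers and 7 of 7 goblet cell markers. Fewer neutrophil markers (2 of 10, median log2 fold change 0.12) and alveolar macrophage markers (2 of 9, median 0.20) were higher there, and 0 lower. With PM 1 of 9 tested neutrophil markers was higher and 0 lower, with a median of -0.22. These 12 monocyte and macrophage markers summed to 8689.9 to 16699 CPM in OVA lungs and 7603 to 15088 CPM in saline lungs without PM. With PM they summed to 13837 to 19492 CPM in OVA lungs and 13741 to 15448 CPM in saline lungs. Lyz2 alone made 75.8% to 85.5% of that sum in OVA lungs and 80.4% to 87.0% in saline lungs without PM. With PM its share was 83.5% to 85.5% in OVA lungs and 84.1% to 86.0% in saline lungs. The median of Lyz2 without PM was 7899.7 CPM in OVA lungs and 7917 CPM in saline lungs. With PM it was 13964 CPM in OVA lungs and 12033 CPM in saline lungs. The sums thus mostly follow Lyz2 and say little on the other markers. The 8 proliferation genes summed to 122 to 378 CPM in OVA lungs without PM and 35.8 to 56.2 CPM in saline lungs without PM, and with PM to 151 to 387 CPM in OVA lungs and 48.5 to 79.9 CPM in saline lungs. Endothelial markers were lower, 5 of 7 without PM and 7 of 7 with PM, with sums of 1571 to 2748 CPM in OVA lungs and 2743 to 3585 CPM in saline lungs without PM, and of 1333 to 1787 CPM in OVA lungs and 2339.7 to 2539 CPM in saline lungs with PM. Alveolar type 1 cell markers were lower too, 4 of 6 without PM and 6 of 6 with PM, with medians of -0.53 and -0.59. Of 5 tested eosinophil markers, 4 were higher without PM and 5 with PM, with medians of 2.16 and 1.66, and of 5 T cell markers 3 were higher without PM and 1 with PM. That 1 of 5 is near the 13.2% of all genes called higher with PM. Alveolar macrophage markers moved beside Fbp1 with PM: 5 of 9 were higher and 1 lower, with a median log2 fold change of 0.51, and the 9 summed to 3107 to 25048 CPM in OVA lungs with PM and 1402 to 1908 CPM in saline lungs with PM. Most of that sum in OVA lungs was Chil3, a chitinase-like protein, at 74.8% to 96.6% of it in OVA lungs with PM and 45.2% to 60.6% in saline lungs with PM, and its log2 fold change was 4.01 ± 0.44 (adjusted p = 7.86e-06). Siglecf stands in both this list and that of eosinophils. For PM against no PM in saline lungs 5 of 12 monocyte and interstitial macrophage markers were higher and 5 of 7 endothelial markers lower. Of all genes 5.47% were higher and 7.37% lower in that comparison. Of 9 tested neutrophil markers, 3 were higher and 0 lower there, and the 10 of the list summed to 1389 to 2636 CPM in saline lungs with PM and 505 to 842 CPM in saline lungs without PM. Lcn2 alone made 63.8% to 82.0% of that sum with PM and 31.2% to 47.1% without PM. Its median was 1738 CPM in saline lungs with PM and 241 CPM in saline lungs without PM. Among these lists the only marker at 0 throughout a group was Epx, of eosinophils, in saline lungs without PM. The part of these shifts in the levels of Hif1a, Hk2, Hk3, Pgk1, Ldha, Fbp1, Epas1 and Vegfa was not tested.

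Genes whose levels ran most like each called gene were sought among 11779 genes over the 19 libraries of at least 2 M counts, by the root mean square difference in centred log2 CPM. Cbfb (0.08) and Jak2 (0.10) were nearest to Hif1a, whose own SD was 0.26. Clic1 and Eif4a1 (0.07 each) were nearest to Ldha, with an SD of 0.21, and Vmp1 (0.13) and Glrx (0.14) to Pgk1, with an SD of 0.33. For Hk2 (SD 0.39) they were Fbxo32 and Sgpp2 (0.17 each), and for Hk3 (SD 0.44) Sulf2 and Rab15 (0.17 each). These are descriptions over libraries that share group and depth.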

How the data were processed

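Lung RNA of 22 libraries was analysed. Per the labels' protocols, poly(A) RNA from 400 ng of total RNA was made into stranded libraries, pooled 24 to a run and read from a single end for 75 cycles. Reads were converted with bcl2fastq and the build was mm10, per the submitters' processing notes; which aligner and counter were run is not given in the sources used here. Raw counts of reads in genes, deposited in 3 tables, were joined (12 shared columns, 12 identical), and each test used them. The authors also deposited log2 fold changes and adjusted p-values of their own, per the file headers, quoted once. Their normalised values were not used. Of 24421 rows, 16 named as dates by a spreadsheet (0.152% to 0.195% of counts) were left out, leaving 24405. Replicates differed by more than sampling noise (chi-square per degree of freedom 2.57 to 81.5).

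Each comparison used only its 2 groups: filterByExpr (at least 10 counts, at least 15 in total), TMM scaling, the quasi-likelihood F test and Benjamini-Hochberg adjustment over all genes at 0.05. An interaction term in a fit of 4 groups tested whether PM acted differently in the arms. The standard error is the estimate over √F, and 95% intervals are 1.96 standard errors each way. Ratios used counts plus 0.5 and exact permutation tests. Lengths and overlaps come from GENCODE M21 (23361 names matched), and promoters from RefSeq, matched by symbol for 10 of 10 genes. Alternatives were DESeq2, DESeq2 size factors, library totals, no filter, 1 CPM in 5 libraries, the replicate number as a block, a correction for length and GC content as an offset (splines with 4 degrees of freedom, genes of at least 10 CPM), all 4 groups in one fit, and leaving out libraries. The fits were tested on simulated data.

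The members, the 7 pathway lists and the 12 marker lists were chosen with earlier results of these data known. The text names all members, their isozymes and partners, up to 3 called genes with the smallest p from each pathway list and comparison, and the 2 genes most like each called member. Pitrm1 and Pgk1-rs7 are named for shared sequence. The main tests did not pair samples by replicate number, since no clear pairing was seen. Tools were R 4.3.3, edgeR 4.0.16, DESeq2 1.42.0, Python 3.11.15, scipy 1.17.1 and pandas 2.3.3. Intervals and floors cover counting or library error only.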

Additional observations from a re-analysis of the deposited data

Results flagged for a closer look

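Hk2 had 0 CPM in replicate 4 of OVA lungs with PM, far below the other 4 libraries of its group (22.6 to 31.1 CPM). The gap to the nearest was 0.73 of the group's range. That library held 0.302 M counts, where 3 counts are worth 10.1 CPM. The same test was made on 36 sets, the 9 detected genes in each of the 4 groups of 5 or 6 libraries, and chance flags about 1 in 20.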

How the results depend on the processing

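The 4 members called for OVA against saline without PM stayed between 3 and 4 when 1 library was left out, and the 4 called with PM ran from 1 (without replicate 1 of OVA with PM) to 5. For PM in saline lungs the count of 1 was 0 with the offset for length and GC content and ran from 0 to 2 with 1 library left out. For PM in OVA lungs the count of 0 was 1 by DESeq2, with DESeq2 size factors, without the libraries under 2 M counts and with all 4 groups in one fit, and ran from 0 to 2 with 1 library left out. The interaction gave 0 members in every fit.

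No clear pairing by replicate number was seen, though this cannot exclude one. Deviations of same-numbered libraries correlated from -0.161 to 0.569 and 3 of 20 matched their own number best. With the replicate block the counts of members called were 4 (OVA without PM), 1 (PM in saline), 0 (PM in OVA), 4 (OVA with PM) and 0 (interaction). Over all genes the block gave 3193 calls against 1862 for PM in saline and 565 against 1339 for PM in OVA. For PM in OVA the count was 2054 with library totals, 3472 without the libraries under 2 M counts, 92 with the offset, 5 with the offset and the block, and 0 to 3396 with 1 library left out. For PM in saline the offset gave 1165, and leaving out 1 library 490 to 4112. The interaction count of 14 was 24 by DESeq2, 6 with the offset, 5 with the offset and the block, and 8 to 27 with 1 library left out. Library totals moved the median of all genes by -0.105 for PM in OVA, and the value of Hk2 under that scaling lies above this shift.

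Some values that never passed the threshold changed sign. For PM in saline, Pfkp was 0.02 with the block, the offset gave Hk2 0.12, Pfkp 0.02 and Slc2a1 0.08, and the offset with the block gave Hk2 0.15, Pdk1 0.03, Pfkp 0.08 and Slc2a1 0.12. For PM in OVA, Hk2 was -0.01 with library totals, Pfkp 0.06 without the libraries under 2 M counts, Hk3 0.11 and Slc2a1 0.07 with the offset, and Hk3 0.08, Pfkp 0.01, Slc2a1 0.03 and H6pd 0.01 with the offset and the block; H6pd is called in the main analysis (-0.38). For OVA with PM, Pdk1 was 0.03 without the libraries under 2 M counts. For the interaction, Ldha was -0.001 and Pgk1 -0.05 with library totals, Pfkfb3 was 0.004 with no filter, 0.02 with the block, 0.002 with the offset and 0.03 with both, Pfkp 0.08 and Slc2a1 0.03 without the libraries under 2 M counts, and Slc2a1 0.01 with the offset. The ratio of Pfkp to Pfkl for PM in OVA was 0.21 without those libraries.

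With 1 library left out, sign changes gave these ranges. For PM in saline, Hk2 ran from -0.18 to 0.02 and Pfkp from -0.06 to 0.02. For PM in OVA, Hk2 ran from -0.03 to 0.17 and Pfkp from -0.16 to 0.002. Pdk1 for OVA with PM ran from -0.06 to 0.04. For the interaction, Ldha ran from -0.05 to 0.16, Pfkfb3 from -0.09 to 0.10, Pfkp from -0.11 to 0.05, Pgk1 from -0.02 to 0.11 and Slc2a1 from -0.10 to 0.05. The ratios of Hk2 to Hk1 ran from -0.19 to 0.74 (OVA with PM) and -0.24 to 0.69 (PM in OVA), Hk3 to Hk1 from -0.04 to 0.39 and Pfkp to Pfkl from -0.08 to 0.11 (PM in OVA). The ratios past 0.05 lost it without the libraries under 2 M counts, at 0.64 (Ldha to Ldhb, OVA without PM), 0.32 (Ldha to Ldhb, OVA with PM), -0.63 (Slc2a1 to Slc2a3) and 0.66 (Hk3 to Hk1), where the adjusted exact permutation p ran from 0.0866 to 0.102. For Hk3 to Hk1 (PM in saline) no library was left out and the difference did not change, so its adjusted p moved with the other ratio tests; for the others fewer libraries also raise the smallest p a design can give. For other causes, the cause was not tested. A 3-count floor of 10.1 CPM in the shallowest library limits Hk2 and Eno1 there.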
